A study of Ovis aries with 32 samples.

Results

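Brown fat burns fuel to make heat, and 10 genes that mark this programme or drive it were followed across 32 RNA-seq libraries of sheep perirenal preadipocytes and the adipocytes made from them. They were taken by gene symbol: UCP1, CIDEA, ELOVL3, COX7A1, PPARGC1A, PPARGC1B, PRDM16, EBF2, ZIC1 and DIO2. Of these 10, 9 were followed among the 21271 genes of the table, and DIO2, the deiodinase that activates thyroid hormone inside brown fat, was not analysed here. ZIC1, a transcription factor of classical brown fat, was listed at 0 in 32 of 32 libraries. The other 8 passed the filter on low values and were tested.

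The heat of brown fat comes from UCP1, a carrier of the inner mitochondrial membrane that lets protons back into the matrix without making ATP. Noradrenaline from sympathetic nerves acts on beta-adrenergic receptors, raises cAMP, frees fatty acids and drives transcription of UCP1 through the PPARGC1 coactivators and PPARG. PRDM16 and EBF2 set the brown identity of the cell, and CIDEA, ELOVL3 and COX7A1 are markers of the mature brown adipocyte that act on lipid droplets, on very long chain fatty acids and in cytochrome oxidase. Perirenal fat is the largest brown depot of the fetal lamb and turns to white fat after birth.

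The cells came from perirenal fat of near-term singleton fetuses of crossbred Columbia-Rambouillet ewes. Growth restriction was produced by keeping the ewes in a hot environment through mid-gestation, which impairs the placenta, and control ewes at a lower temperature were pair-fed to them. Preadipocytes of control males (MC), control females (FC), growth-restricted males (MFGR) and growth-restricted females (FFGR) were sequenced as such and after differentiation to mature adipocytes (MCD, FCD, MFGRD and FFGRD), with 4 libraries in each of the 8 groups. The agents and length of the differentiation are not given in the sources used here, and neither is whether the 4 libraries of a group come from 4 fetuses, so p-values measure the spread between libraries.

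The values are normalized reads, summed here over the transcripts of a gene. The libraries held approximately 7.74 to 21.2 M reads, and 1 read was worth 0.698 to 1.8 normalized reads, so that a gene at 0 may have stood at up to 3 reads, or 2.09 to 5.4 normalized reads, by counting error alone. In 9 of the 32 libraries the values fell steeply with the genomic span of the transcript (slope of log2 value on log2 span below -0.2), and these are called the steep libraries. They were FC replicate 2, MFGR replicate 1 and FFGR replicates 2 and 3 among the preadipocytes, and MCD replicates 2 and 4, FCD replicate 2, MFGRD replicate 1 and FFGRD replicate 3 among the differentiated cells. All 9 mature adipocyte markers examined were higher after differentiation, and their summed value ranged from 72.3 to 1440 normalized reads in preadipocytes and from 347 to 186000 in differentiated cells. In bulk libraries fewer cells of a type and less RNA per cell cannot be told apart.

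UCP1 (ENSOARG00020012680, chromosome 17, 18691987 to 18698653 in Oar_rambouillet_v1.0) was all but absent before differentiation and uneven after it. In preadipocytes it was listed at 0 in 13 of 16 libraries, and the highest value was 2.1 normalized reads, under 3 reads of that library. In differentiated cells it ranged from 0 to 680 normalized reads with a median of 18.5, and 10 of 16 libraries lay above every preadipocyte library. Only 2 differentiated libraries were listed at 0.

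In control males UCP1 was 0 in 4 of 4 MC libraries and 0, 284, 126 and 68.5 normalized reads in MCD replicates 1 to 4. In control females it was 0 in 4 of 4 FC libraries and 31.9, 14.4, 22.5 and 0 in FCD replicates 1 to 4. With each undifferentiated library taken at 3 reads, the group mean after differentiation was at least 33.9-fold higher in males and at least 5.19-fold higher in females. The growth-restricted groups were carried by few libraries. MFGR held 0, 0, 1.23 and 2.1 normalized reads and MFGRD 103, 0.837, 5.42 and 0.861. FFGR held 0, 0, 0.943 and 0, and FFGRD 66.7, 0.78, 680 and 0.749. Each of the 4 backgrounds thus had at least 1 differentiated library at or near 0 beside others well above it, and the values before and after differentiation overlapped in all 4.

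**Figure D1:**
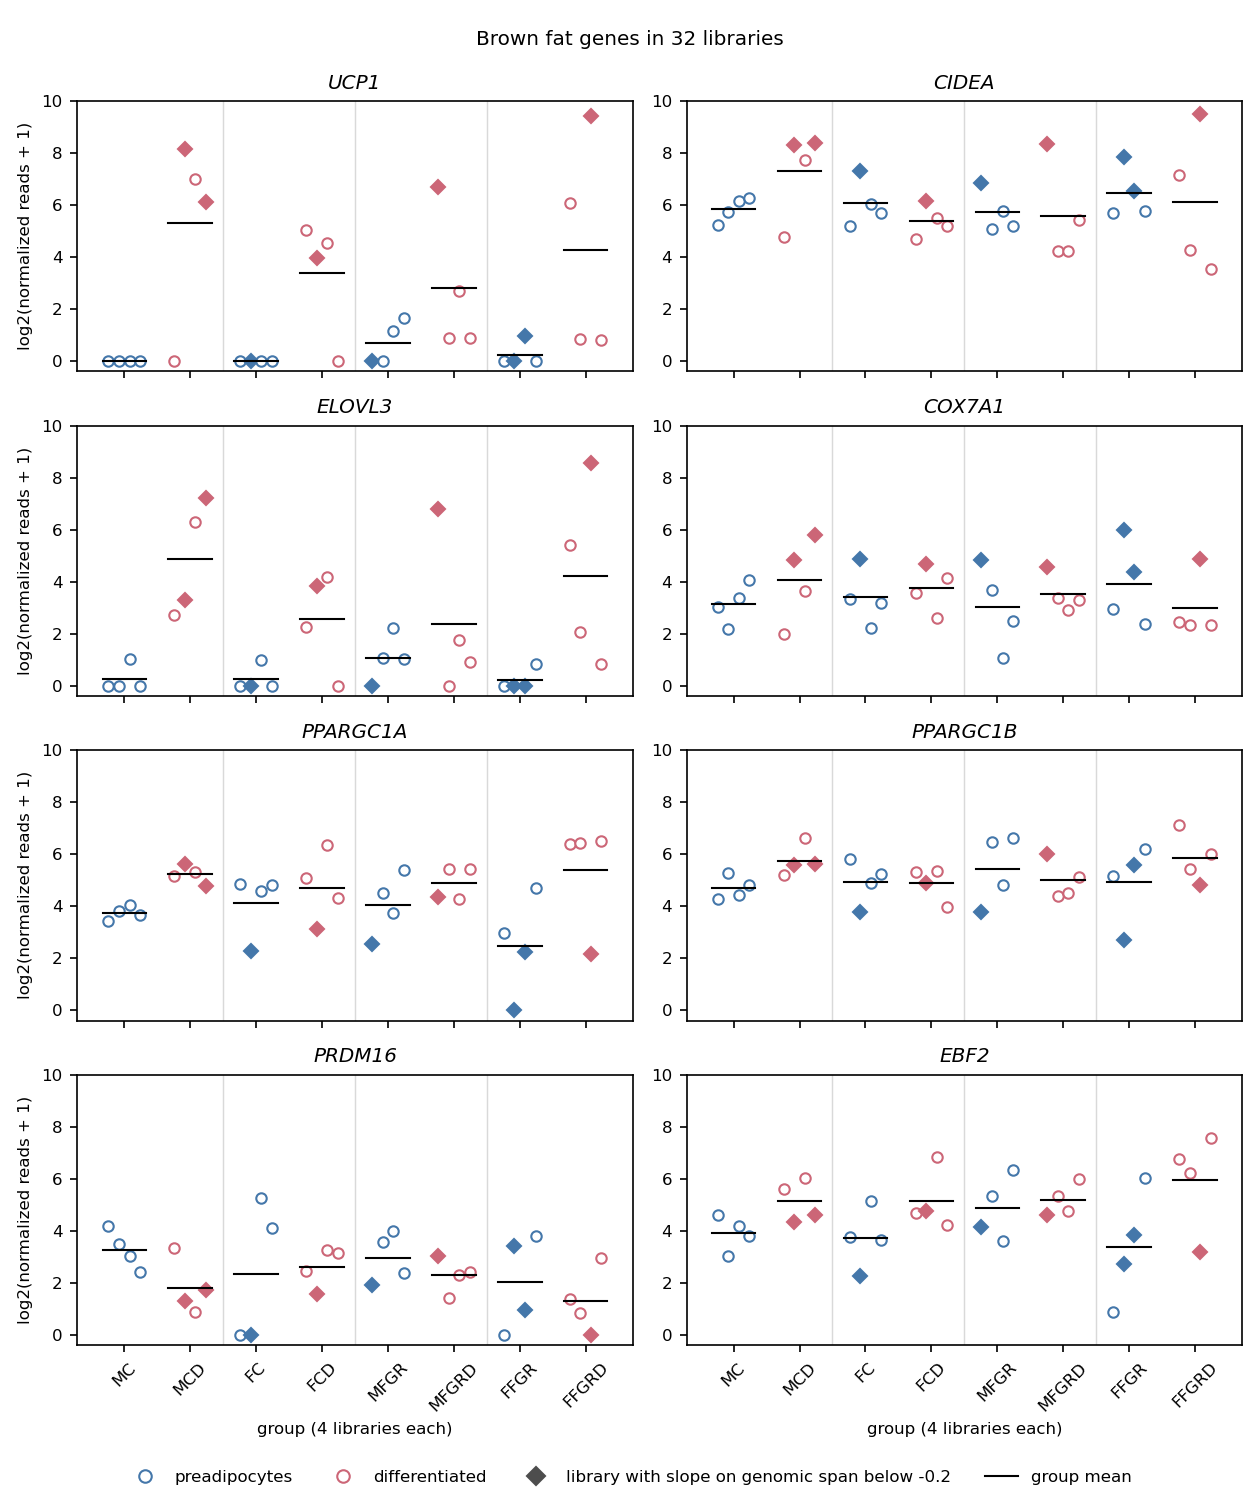
Level of the 8 tested brown fat genes in each library, as log2(normalized reads + 1), by group, with 4 libraries a group; black bars are group means and filled diamonds the 9 steep libraries. UCP1 and ELOVL3 lie at or near 0 in the 16 preadipocyte libraries and spread up to 680 and 374 normalized reads after differentiation, whereas CIDEA and COX7A1 are present at both stages.

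ELOVL3 (chromosome 22, 25493127 to 25496288), an elongase of saturated very long chain fatty acids, followed nearly the same course. Before differentiation it ranged from 0 to 3.65 normalized reads and was listed at 0 in 10 of 16 libraries. After differentiation it was 5.53, 8.74, 77.5 and 149 in MCD, 3.82, 13.4, 17.1 and 0 in FCD, 111, 0, 2.34 and 0.864 in MFGRD, and 41.8, 3.15, 374 and 0.755 in FFGRD, each in the order of replicates 1 to 4. The 4 MCD libraries all lay above the 4 MC libraries, which were at 0, 0, 1.01 and 0. FFGRD replicate 3 was the highest library of all for ELOVL3, as it was for UCP1.

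CIDEA (chromosome 23, 48267367 to 48277933), a lipid droplet protein that helps droplets to fuse, was present in every library at both stages. It ranged from 33.1 to 230 normalized reads in preadipocytes, with a median of 53.8, and from 10.6 to 730 in differentiated cells, with a median of 43. In differentiated cells the spread was wide: MCD replicates 1 to 4 held 26.4, 312, 209 and 336 normalized reads, and FFGRD replicates 1 to 4 held 143, 18.2, 730 and 10.6. The median thus did not rise while the highest libraries did, and 4 of 16 differentiated libraries lay above every preadipocyte library. All 4 were steep libraries. In the libraries that were not steep the median was 51.5 before and 26.4 after differentiation.

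COX7A1 (chromosome 14, 49533570 to 49535103), the heart-type isoform of a small cytochrome oxidase subunit, was low throughout. It ranged from 1.08 to 62.1 normalized reads in preadipocytes and from 2.98 to 54.7 in differentiated cells, with medians of 8.6 and 9.96. The highest value was that of FFGR replicate 2, an undifferentiated library. No differentiated library lay above all preadipocyte libraries.

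PPARGC1A (chromosome 6, 48031884 to 48136482), the cold-induced coactivator of UCP1 and of mitochondrial biogenesis, was expressed before differentiation and higher after it. In MC it was 9.8, 13.2, 15.4 and 11.5 normalized reads and in MCD 34.9, 48.7, 38.6 and 26.6, so that the 2 groups did not overlap. In FFGR it was 6.79, 0, 3.76 and 25.2 and in FFGRD 83.1, 86.2, 3.52 and 91.1. The steep library FFGRD replicate 3, where UCP1 was highest, thus held the least PPARGC1A of the 16 differentiated libraries. In FC and FCD the ranges were 3.81 to 27.6 and 7.73 to 80.7, and in MFGR and MFGRD 4.85 to 41 and 18.6 to 42.2, and these overlapped.

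PPARGC1B (chromosome 5, 63788588 to 63902080), a related coactivator of mitochondrial genes, ranged from 5.57 to 97.5 normalized reads in preadipocytes and from 14.8 to 137 in differentiated cells, with medians of 31.8 and 39.6. In each of the 4 backgrounds the groups overlapped. Its 2 transcripts replaced each other: in 28 of 32 libraries exactly 1 of PPARGC1B-201 and PPARGC1B-202 was listed at 0, and in 4 both were above 0. The cause was not tested, and the sum is the value used for PPARGC1B.

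PRDM16 (chromosome 12, 53413688 to 53746666), the zinc finger factor that keeps brown precursors from the muscle fate, was low. It ranged from 0 to 36.9 normalized reads in preadipocytes, with a median of 8.45, and from 0 to 9.01 in differentiated cells, with a median of 3.1. No differentiated library reached 10 normalized reads, whereas 7 of 16 preadipocyte libraries did. Its transcripts PRDM16-201 and PRDM16-202 also alternated, with exactly 1 at 0 in 28 libraries and both at 0 in 4.

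EBF2 (chromosome 2, 41658569 to 41876245), which opens brown fat genes to PPARG, was present at both stages. In FFGR it was 0.847, 5.57, 13.2 and 65.1 normalized reads and in FFGRD 107, 73.9, 8.2 and 190. In FC it was 12.4, 3.82, 34.8 and 11.6 and in FCD 25, 26.1, 114 and 17.6. In both pairs the groups overlapped at 1 or more libraries. The ranges were 7.12 to 23.3 in MC against 19.1 to 64 in MCD, and 11.2 to 80.5 in MFGR against 23.3 to 62.9 in MFGRD. Nearly all of the EBF2 value, 99.2%, was that of the transcript EBF2-202.

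Of the genes with several transcripts, CIDEA-201 held 93.6% of the CIDEA sum and PPARGC1A-202 held 52.8% of the PPARGC1A sum, with the rest of PPARGC1A divided over 5 transcripts. No tested brown fat gene overlapped another gene of the table by its coordinates.

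The first comparison asked how differentiation moved these genes, as the mean of the 4 backgrounds. UCP1 rose by a log2 difference of 3.71 ± 0.80 (SE, adjusted p = 0.000624), ELOVL3 by 3.06 ± 0.68 (adjusted p = 0.000803), PPARGC1A by 1.46 ± 0.45 (adjusted p = 0.0129) and EBF2 by 1.39 ± 0.45 (adjusted p = 0.0183), on log2(normalized reads + 1). Each of these 4 was higher in the mean of all 4 backgrounds. Thus 4 of the 8 tested genes were called higher and 0 lower, where 12.4% of the 12737 genes tested were called higher, 14.8% lower and 27.2% in either direction. UCP1 and ELOVL3 reached the filter's 10 normalized reads in 0 of 16 preadipocyte libraries and in 9 and 7 differentiated libraries, so they entered the test only through the differentiated cells, where they are high, and the count is a description. The median log2 difference of the 8 genes, UCP1 and ELOVL3 included, was 0.88, beside 0.03 over all genes tested. For the same reason it is a description. The other 4 did not pass: PPARGC1B 0.38 ± 0.33 (adjusted p = 0.43), COX7A1 0.22 ± 0.43 (adjusted p = 0.756), CIDEA 0.07 ± 0.50 (adjusted p = 0.943) and PRDM16 -0.66 ± 0.49 (adjusted p = 0.339). Their 95% intervals, -0.31 to 1.06 for PPARGC1B, -0.67 to 1.1 for COX7A1, -0.95 to 1.08 for CIDEA and -1.67 to 0.35 for PRDM16, all include 0.

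The 4 calls held when any 1 of the 32 libraries was left out, with log2 differences of 3.28 to 4.15 for UCP1, 2.69 to 3.34 for ELOVL3, 1.25 to 1.72 for PPARGC1A and 1.18 to 1.61 for EBF2. Since UCP1 and ELOVL3 start at or near 0, their size depends on the pseudocount, and with 0.1 in place of 1 the log2 differences were 5.85 and 4.79. Without the 9 steep libraries UCP1 rose by 2.45 (adjusted p = 0.0239), PPARGC1A by 1.28 (adjusted p = 0.000982) and EBF2 by 1.66 (adjusted p = 0.0156), whereas ELOVL3 fell below the filter and had no test. The rise of PPARGC1A is one of the sum: of its 6 transcripts 4 were tested on their own and 0 of these were called, with PPARGC1A-203 nearest at 1.35 ± 0.58 (adjusted p = 0.0977).

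**Figure D2:**
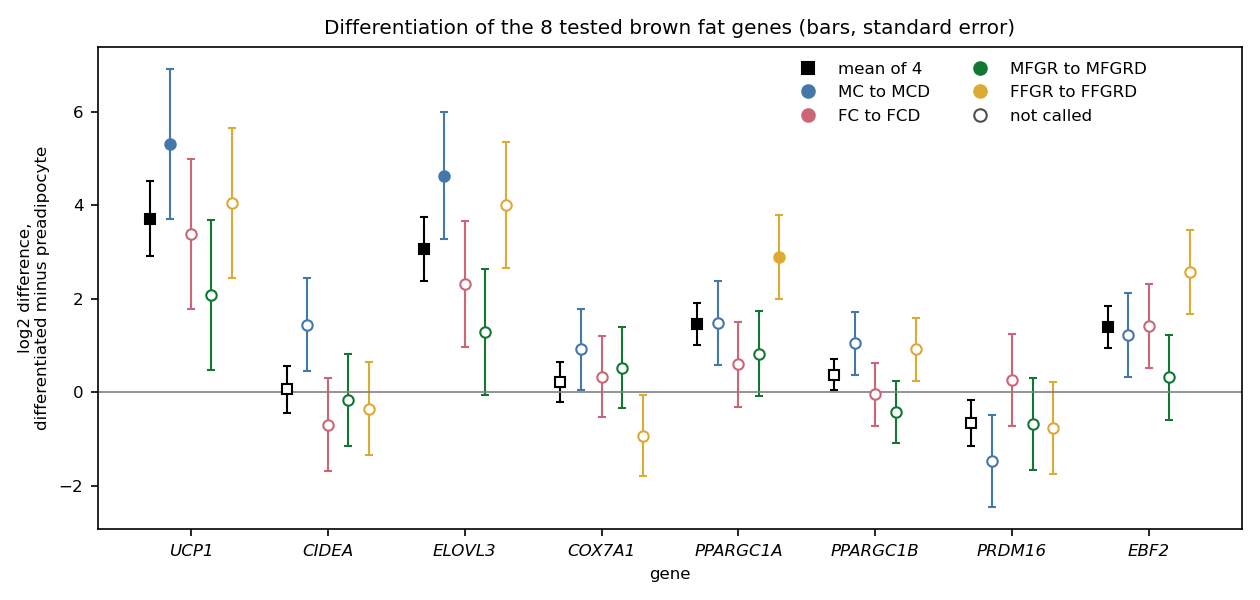
Log2 difference between differentiated cells and preadipocytes for the 8 tested brown fat genes, on log2(normalized reads + 1), as the mean of the 4 backgrounds (squares) and in each background (circles); bars are standard errors and open symbols were not called. UCP1, ELOVL3, PPARGC1A and EBF2 are called in the mean, UCP1 and ELOVL3 in MC, and PPARGC1A in FFGR.

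Within a background, with 4 libraries against 4, fewer of the genes were called. In control males 2 of 8 were called higher and 0 lower, where 3.8% of all genes were higher, 4.55% lower and 8.35% in either direction: UCP1, by a log2 difference of 5.31 ± 1.60 (adjusted p = 0.036), and ELOVL3, by 4.63 ± 1.35 (adjusted p = 0.0308). Both entered the test only through differentiated cells, where they are high, so counts here that include them are descriptions. The call of UCP1 was lost without any 1 of MC replicates 1 to 4 or MCD replicates 2, 3 or 4 (log2 differences of 4.37 to 5.31, adjusted p = 0.0726 to 0.144) and without the steep libraries (3.49, adjusted p = 0.214). The call of ELOVL3 was lost without any 1 of MC replicates 1 to 4 or MCD replicates 3 or 4 (3.84 to 4.88, adjusted p = 0.0502 to 0.127). All MCD values lay above all MC values for 2 of the 8 genes, PPARGC1A and ELOVL3, as they did for 7.65% of all genes tested, and in the other 3 backgrounds for 0 of the 8 (4.91% of all genes in control females, 5.16% in growth-restricted males and 5.14% in growth-restricted females). With the slope as a covariate PPARGC1A also passed in control males (2.22, adjusted p = 0.00424).

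In growth-restricted females 1 of 8 was called higher and 0 lower, where 4.33% of all genes were higher, 5.99% lower and 10.3% in either direction: PPARGC1A, by a log2 difference of 2.90 ± 0.90 (adjusted p = 0.0357). The call was lost without any 1 of FFGR replicates 2 or 3 or FFGRD replicates 1, 2 or 4 (2.08 to 2.83, adjusted p = 0.0851 to 0.184). ELOVL3 (4.00, adjusted p = 0.0569), UCP1 (4.04, adjusted p = 0.11) and EBF2 (2.57, adjusted p = 0.0678) did not pass. With the slope as a covariate all 3 did (ELOVL3 4.37, adjusted p = 0.0164; UCP1 4.57, adjusted p = 0.0264; EBF2 2.21, adjusted p = 0.0412). Some passed without 1 library: EBF2 without FFGRD replicate 3, the steep library with the highest UCP1 (3.48, adjusted p = 0.0103), or FFGR replicate 4 (3.46, adjusted p = 0.0115), and UCP1 without FFGRD replicate 4 (5.20, adjusted p = 0.0492). ELOVL3 passed without FFGRD replicate 2 (4.72, adjusted p = 0.0452), FFGRD replicate 4 (5.14, adjusted p = 0.0167) or MFGRD replicate 1 (4.00, adjusted p = 0.0279).

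In control females 0 of 8 genes were called, where 2.52% of all genes were, and in growth-restricted males 0 of 8, where 5.13% were. At an unadjusted p below 0.05, which 15.5% of all genes had in control females and 17.3% in growth-restricted males, there was 1 of the 8 in control females, UCP1 with a log2 difference of 3.38 (adjusted p = 0.302), and 0 in growth-restricted males, where UCP1 had a log2 difference of 2.09 (adjusted p = 0.6). In growth-restricted males the UCP1 difference was 0.79 without MFGRD replicate 1 and 0.56 without the steep libraries. There the ELOVL3 difference of 1.29 became -0.20 without MFGRD replicate 1, and in control females the PPARGC1A difference of 0.60 became -0.02 without FC replicate 2. Taking the replicate numbers as pairs raised the genes called over the whole table from 1063 to 1824 in control males, from 321 to 712 in control females and from 654 to 1147 in growth-restricted males, and left the number of brown fat genes called at 2, 0 and 0. In growth-restricted females, where replicate 2 did not deviate together before and after differentiation (r = -0.398), all genes called rose from 1315 to 2185. The brown fat genes called there went from 1 to 2, adding EBF2 (adjusted p = 0.0193).

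Whether growth restriction changed these genes was asked at each stage, and 0 of the 8 were called at either (0% of all genes were called in each). In preadipocytes the log2 differences between growth-restricted and control libraries ran from -0.66 for PPARGC1A to 0.47 for UCP1, and in differentiated cells from -0.81 for UCP1 to 0.42 for EBF2. Their lowest unadjusted p was 0.305, whereas 344 genes of the table (2.7%) in preadipocytes and 136 (1.07%) in differentiated cells had an unadjusted p below 0.05. The spread of UCP1 leaves this question wide: the 95% interval of its difference in differentiated cells was -3.13 to 1.5.

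Sex was compared in the same way. Of the 8 genes 0 were called in preadipocytes and 0 in differentiated cells (0% of all genes in each), with 550 (4.32%) and 159 (1.25%) genes of the table at an unadjusted p below 0.05 and 0 of the 8 among them. The largest differences were those of PRDM16 in preadipocytes, 0.93 higher in males (95% interval -0.49 to 2.36), and of CIDEA in differentiated cells, 0.68 higher in males (95% interval -0.76 to 2.12).

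The response to differentiation itself was also compared between backgrounds. The UCP1 response in growth-restricted cells minus that in control cells was -1.28 (95% interval -4.56 to 2, adjusted p = 0.988), and in males minus females it was -0.01 (95% interval -3.29 to 3.27). Over the 8 genes the differences in response by growth restriction ran from -1.28 for UCP1 to 0.82 for PPARGC1A, and by sex from -1.22 for EBF2 to 1.16 for CIDEA. Of the 8 genes 0 were called in either (0% of all genes), with 132 (1.04%) and 116 (0.911%) genes of the table at an unadjusted p below 0.05. MC and FFGR lie on opposite sides of both contrasts. Whether the responses called within MC and FFGR differ from those of the other backgrounds was therefore not tested.

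The level of these genes moved with the slope of a library on genomic span, in opposite directions for short and long genes. The slope was fitted to each library's own values, these genes included, so the opposite directions follow from its definition. The coefficients below describe how closely each gene followed the slope and are no test of that direction. The short genes COX7A1 (1.53 kb), UCP1 (6.67 kb) and CIDEA (10.6 kb) were higher where the slope was steeper, and the long genes PPARGC1A (105 kb), PPARGC1B (113 kb) and EBF2 (218 kb) were lower, while ELOVL3 (3.16 kb) and PRDM16 (333 kb) did not pass. Per SD of slope (0.138) the fitted log2 change was -1.05 for COX7A1 (adjusted p = 2.35e-09), -1.06 for CIDEA (adjusted p = 2.73e-06), -0.98 for UCP1 (adjusted p = 0.0258) and -0.68 for ELOVL3 (adjusted p = 0.075). It was 1.01 for PPARGC1A (adjusted p = 2.66e-07), 0.67 for EBF2 (adjusted p = 0.00486), 0.46 for PPARGC1B (adjusted p = 0.00987) and 0.48 for PRDM16 (adjusted p = 0.0844). Of all genes tested, 69.5% had a slope coefficient at an adjusted p below 0.05.

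COX7A1 tracked the slope most closely. It was 19.6 to 62.1 normalized reads in the 4 steep preadipocyte libraries and 22.7 to 54.7 in the 5 steep differentiated libraries, against 1.08 to 15.6 and 2.98 to 16.7 in the 12 and 11 others, so that steep and other libraries did not overlap at either stage. CIDEA in preadipocytes did not overlap either, at 92.3 to 230 against 33.1 to 76.1. UCP1 differed by stage: in the 4 steep preadipocyte libraries it was 0 to 0.943, while in the 5 steep differentiated libraries it was 14.4 to 680, against 0 to 126 in the 11 others. The median of UCP1 in differentiated cells was 103 in the steep libraries and 0.861 in the others, where 4 of 11 reached 10 normalized reads. With the slope as a covariate the log2 differences on differentiation were 3.69 for UCP1 (adjusted p = 0.000133), 3.05 for ELOVL3 (adjusted p = 0.000262), 1.47 for PPARGC1A (adjusted p = 3.55e-05) and 1.40 for EBF2 (adjusted p = 0.00323).

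**Figure D3:**
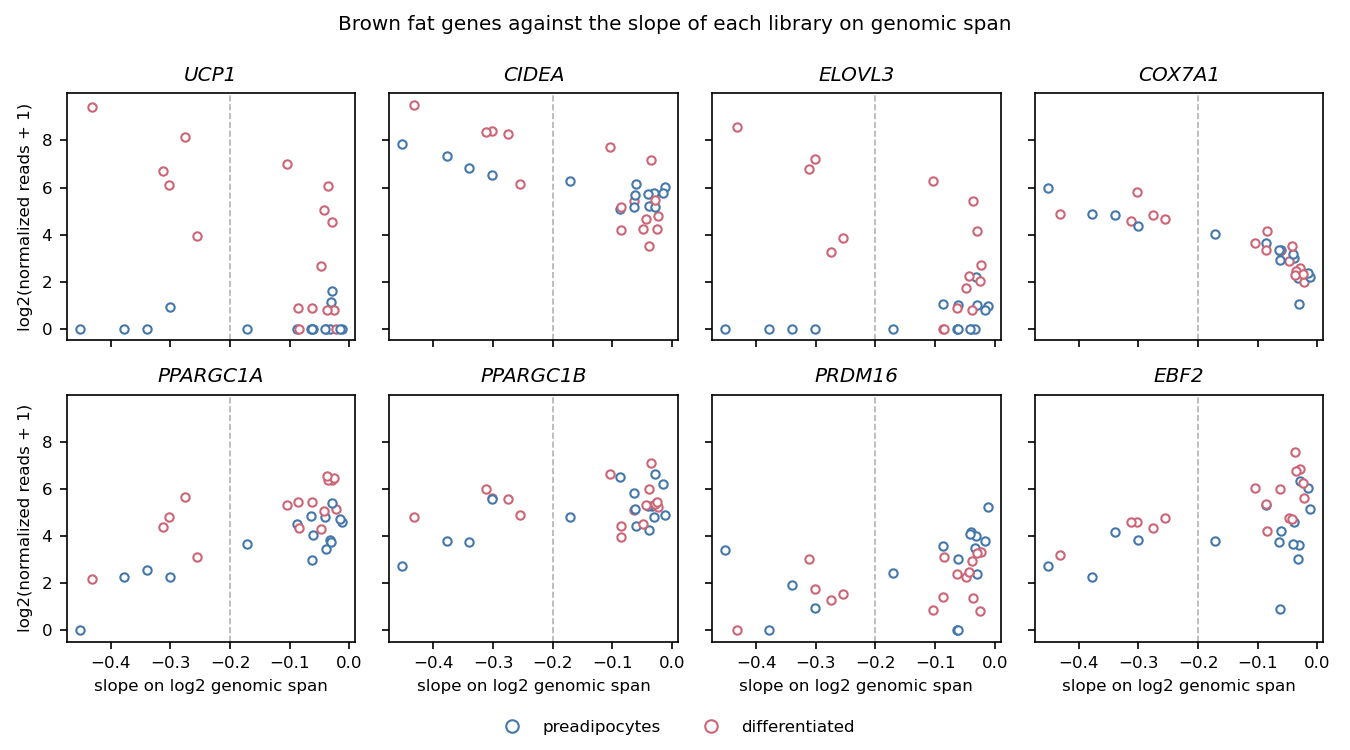
Level of the 8 tested brown fat genes, as log2(normalized reads + 1), against the slope of each of the 32 libraries on log2 genomic span; the dashed line is at -0.2. COX7A1 falls almost along a line from the steep libraries to the others at both stages, PPARGC1A rises, and UCP1 in steep libraries lies at 0 to 0.943 normalized reads before differentiation and at 14.4 to 680 after it.

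Among the 16 differentiated libraries UCP1 went with adiponectin (ADIPOQ), the hormone that mature adipocytes secrete. FFGRD replicate 3, with 680 normalized reads of UCP1, held 8954 of ADIPOQ, and MCD replicate 3, with 126 of UCP1, held the most ADIPOQ, 13420. FCD replicate 4, with UCP1 listed at 0, held the least ADIPOQ, 8.59. Over the 16 libraries Pearson's r of the log2 values was 0.80 (permutation p = 0.00015, adjusted p = 0.00056 over 15 relations) and Spearman's rho 0.76 (permutation p = 0.0011, adjusted p = 0.0041). Without the 2 libraries farthest from the median ADIPOQ r was 0.81, within groups 0.83, with the slope removed 0.77 and in the 11 libraries that were not steep 0.76. MCD replicate 1 departed from this, with 1233 normalized reads of ADIPOQ and UCP1 listed at 0. FFGRD replicate 2 and MFGRD replicate 2 also held little UCP1, 0.78 and 0.837, at 1160 and 661 of ADIPOQ. FCD replicates 1 and 2 held more UCP1, 31.9 and 14.4, at 991 and 497 of ADIPOQ.

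ELOVL3 was related to ADIPOQ in the same way (r = 0.82, permutation p = 0.00014, adjusted p = 0.00056; rho = 0.85, permutation p = 6e-05, adjusted p = 0.0009; r = 0.83 without 2 libraries, 0.81 within groups, 0.79 with the slope removed). CIDEA had r = 0.69 (permutation p = 0.0027, adjusted p = 0.0081; rho = 0.69, permutation p = 0.0039, adjusted p = 0.012; r = 0.81 without 2 libraries, 0.62 within groups, 0.64 with the slope removed). In the 11 libraries that were not steep r was 0.85 for ELOVL3 and 0.53 for CIDEA. CIDEA was thus related to the adipocyte marker over the 16 differentiated libraries, less closely without the steep ones. The test of its difference between the stages did not pass. PPARGC1B had r = 0.62 (permutation p = 0.011, adjusted p = 0.027; rho = 0.61, permutation p = 0.014, adjusted p = 0.03), which fell to 0.38 without the 2 libraries and so rested on them, while it was 0.52 within groups, 0.72 with the slope removed and 0.71 in the 11 libraries that were not steep.

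UCP1 and CIDEA (r = 0.88, permutation p = 2e-05, adjusted p = 0.0003; rho = 0.81, permutation p = 0.00031, adjusted p = 0.0018; r = 0.84 without 2 libraries, 0.87 within groups, 0.74 with the slope removed) and UCP1 and ELOVL3 (r = 0.84, permutation p = 4e-05, adjusted p = 0.0003; rho = 0.81, permutation p = 0.00035, adjusted p = 0.0018; r = 0.83 without 2 libraries, 0.83 within groups, 0.70 with the slope removed) were also related. UCP1 and COX7A1 had r = 0.59 (permutation p = 0.017, adjusted p = 0.036; rho = 0.66, permutation p = 0.006, adjusted p = 0.015), but -0.05 with the slope removed, so that relation does not hold apart from the slope. UCP1 and PRDM16 had r = -0.51 (permutation p = 0.045, adjusted p = 0.084) and rho = -0.52 (permutation p = 0.043, adjusted p = 0.081). The regulators PPARGC1A and EBF2 had no relation to ADIPOQ past the threshold: r was -0.03 (permutation p = 0.91) and rho -0.02 (permutation p = 0.94) for PPARGC1A, and r was -0.09 (permutation p = 0.74) and rho -0.05 (permutation p = 0.85) for EBF2. With the slope removed these r were 0.45 and 0.36. Their relations to UCP1 did not pass either (r = -0.34, permutation p = 0.2, rho = -0.23, permutation p = 0.4 for PPARGC1A; r = -0.40, permutation p = 0.12, rho = -0.36, permutation p = 0.17 for EBF2), and with the slope removed their r turned to 0.31 and 0.20.

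**Figure D4:**
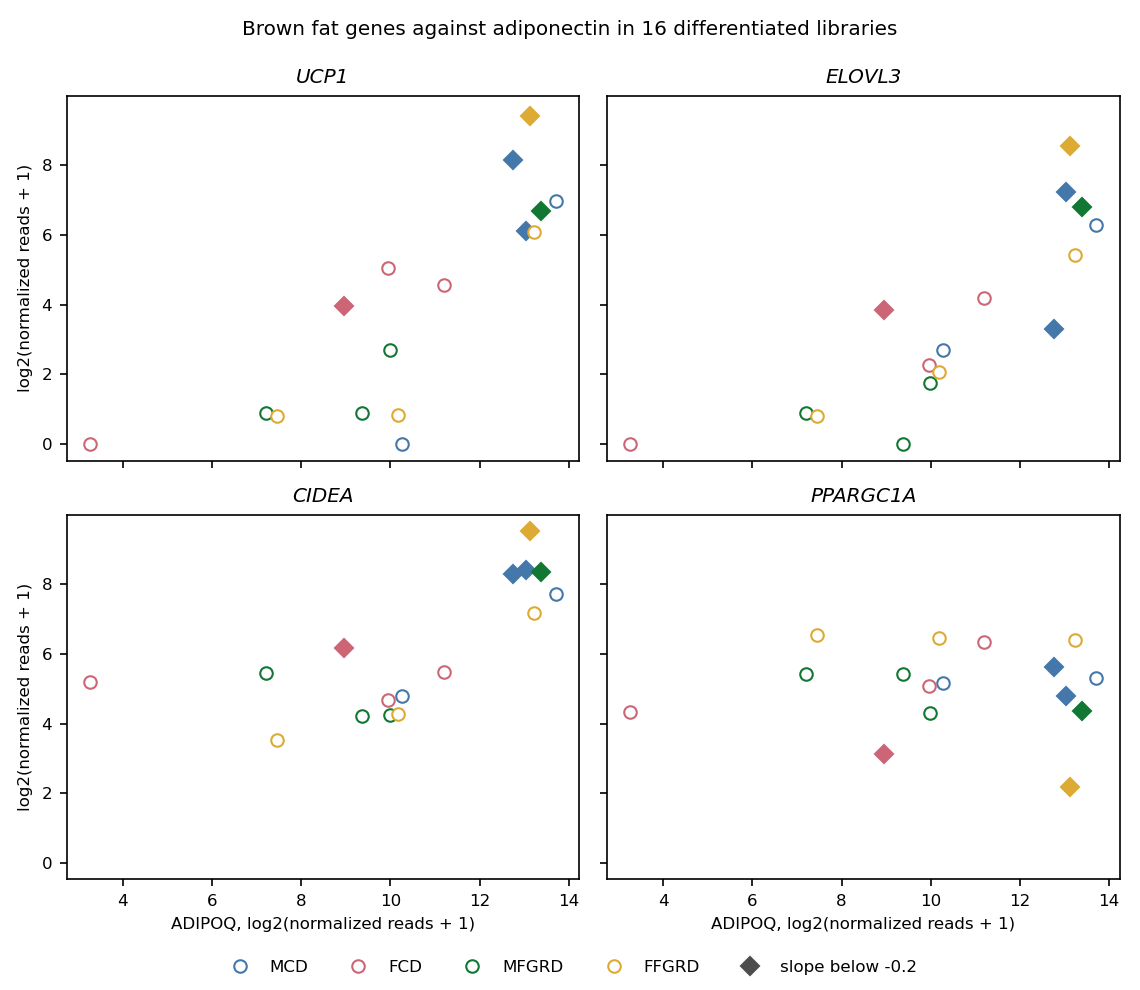
Levels of UCP1, ELOVL3, CIDEA and PPARGC1A against that of ADIPOQ in the 16 differentiated libraries, all as log2(normalized reads + 1), coloured by group; filled diamonds are the steep libraries. UCP1, ELOVL3 and CIDEA are high where ADIPOQ is high (r = 0.80, 0.82 and 0.69), and for PPARGC1A r is -0.03.

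The pathway around these genes was read from 9 further lists in the same comparison, the mean of the 4 backgrounds, where again 12.4% of all genes were called higher and 14.8% lower. Upstream of heat production, in the adrenergic receptors and cAMP steps, 5 of 13 tested genes rose and 2 fell, with a median log2 difference of 0.15. ADRB3, the beta-adrenergic receptor of mature fat, rose by 3.71 ± 0.75 (adjusted p = 0.0003), from a mean of 1.15 normalized reads to 76.3. The largest rise was that of PDE4D, a phosphodiesterase that breaks down cAMP, by 4.29 ± 0.64 (adjusted p = 6.71e-06), and the largest fall that of ADCY3, an adenylyl cyclase that makes cAMP, by 1.19 on the log2 scale (adjusted p = 0.00034). The list thus held a receptor and a cAMP-degrading enzyme that rose beside a cAMP-making enzyme that fell. Another adenylyl cyclase of the list, ADCY6, was not called (0.12 ± 0.24, adjusted p = 0.752).

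Among transcription factors and cofactors of brown fat 6 of 17 rose and 3 fell, with a median of 0.03. PPARG, the nuclear receptor on which all fat cells depend, rose by 2.26 ± 0.48 (adjusted p = 0.000526). PPARA, a driver of fatty acid oxidation that is high in brown fat, had a log2 difference of -0.14 ± 0.17 (adjusted p = 0.593). The retinoid receptor RXRG had the largest rise, 5.03 ± 0.65 (adjusted p = 9.26e-07), from 0.121 to 132 normalized reads, and PLAC8, an upstream regulator of CEBPB, the largest fall, by 3.70 on the log2 scale (adjusted p = 1.12e-05). Of the repressors of the brown programme 1 of 8 rose, FOXO1 by 2.25 ± 0.34 (adjusted p = 1.01e-05), and 0 fell.

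In heat production without UCP1 and other uncoupling carriers 3 of 9 rose and 0 fell. UCP2, a relative of UCP1 found in many tissues, rose by 4.39 ± 0.75 (adjusted p = 4.4e-05), from 5.08 to 323 normalized reads, and was the largest rise of that list. UCP3, the muscle form, was under the filter and was listed at 0 in 16 of 16 preadipocyte and 15 of 16 differentiated libraries. CKB and CKMT2, the creatine kinases of the futile creatine cycle, were the other 2 that rose, by 2.93 ± 0.56 (adjusted p = 0.000182) and 2.12 ± 0.37 (adjusted p = 4.69e-05), and were named after their values were seen.

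Of the metabolic genes high in brown fat 3 of 10 rose and 2 fell. PDK4, which spares glucose by blocking pyruvate dehydrogenase, rose by 5.87 ± 0.59 (adjusted p = 1.4e-08), and FABP3, the fatty acid binding protein of heart and brown fat, fell by 3.15 on the log2 scale (adjusted p = 1.76e-05), from 396 to 37 normalized reads. Of the beige fat markers 1 of 5 rose, CITED1 by 2.79 ± 0.53 (adjusted p = 0.000144), and 3 fell, EPSTI1 most, by 3.02 on the log2 scale (adjusted p = 7.63e-06). Of the signals secreted by brown fat 0 of 4 rose and 2 fell, IL6 by 2.78 (adjusted p = 0.032) and GDF15 by 2.66 (adjusted p = 0.000201) on the log2 scale, while FGF21, NRG4 and CXCL14 were under the filter.

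In mitochondrial biogenesis 2 of 10 rose and 1 fell, with a median of 0.27. POLG, the polymerase of mitochondrial DNA, rose by 0.86 ± 0.16 (adjusted p = 0.000152) and the deacetylase SIRT3 fell by 0.82 on the log2 scale (adjusted p = 0.0152). In thyroid hormone and retinoid handling 5 of 6 rose and 0 fell, ALDH1A1, which makes retinoic acid, most, by 5.14 ± 0.62 (adjusted p = 2.66e-07). The deiodinase DIO1 was under the filter, at 0 to 4.85 normalized reads before and 0 to 3.15 after differentiation.

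**Figure D5:**
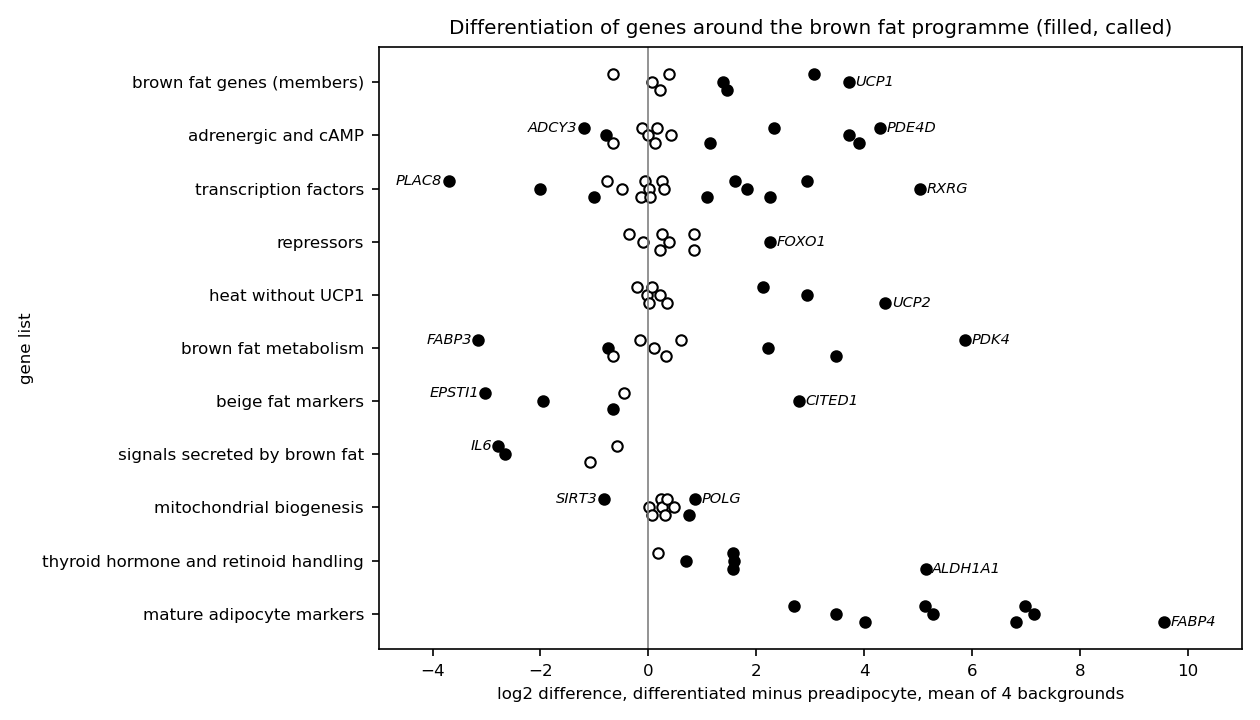
Log2 difference between differentiated cells and preadipocytes, as the mean of the 4 backgrounds on log2(normalized reads + 1), for each tested gene of the brown fat genes, of the 9 lists around them and of the mature adipocyte markers; filled points were called, and the largest called rise and fall of each list are named. All 9 mature adipocyte markers, several of them listed by the authors as altered in these cells, lie to the right, from 2.70 for LPL to 9.55 for FABP4. Each of the other lists also holds genes that were not called.

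Set beside these lists, the mature adipocyte markers rose together, 9 of 9, with a median log2 difference of 5.28. CIDEC among them is also 1 of the metabolic genes above. FABP4, ADIPOQ, PLIN1, LIPE, CEBPA, DGAT2 and THRSP are also among the genes the authors list as altered by differentiation in these control groups. The 9 of 9 therefore describes these cultures and is no independent contrast to the other lists. FABP4, the fatty acid carrier of adipocytes, rose by 9.55 ± 0.69 (adjusted p = 1e-10) and ADIPOQ by 6.82 ± 0.73 (adjusted p = 4.45e-08). Of the preadipocyte and stromal markers 2 of 7 rose, THY1 most (1.65 ± 0.35, adjusted p = 0.000603), and 3 fell, ENG most (by 2.13 on the log2 scale, adjusted p = 2e-07).

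Markers of other cell types also moved with differentiation. Of the skeletal muscle markers 2 of 9 passed the filter and both fell, DES by 3.43 on the log2 scale (adjusted p = 4.6e-05) and TNNT1 by 1.59 (adjusted p = 0.00181), and their summed value was 20.2 to 2340 normalized reads in preadipocytes and 1.63 to 179 in differentiated cells, with MYOD1, MYOG and PAX7 listed at 0 in all 16 preadipocyte libraries. Of the kidney and adrenal markers 2 of 4 rose, CYP17A1 most (2.97 ± 0.53, adjusted p = 6.73e-05), and 1 fell, PAX8 (by 3.01 on the log2 scale, adjusted p = 2.04e-06), with UMOD at 0 in 32 libraries and summed values of 20 to 219 and 23.5 to 537. Of the endothelial markers 1 of 4 fell, KDR (by 1.43 on the log2 scale, adjusted p = 0.0289), with sums of 11.5 to 125 and 5.84 to 286. Of the immune markers CD14 rose (1.86 ± 0.35, adjusted p = 0.000144) and CD68 fell (by 0.81 on the log2 scale, adjusted p = 0.0424), with sums of 89.4 to 553 and 116 to 905. Of the mesothelial markers 0 of 3 were called, with sums of 3.06 to 1610 and 1.41 to 130, and of the Schwann cell markers S100B, which adipocytes also make, rose (1.06 ± 0.28, adjusted p = 0.00453). The part of these cell types in the changes of the brown fat genes was not tested.

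Over all 32 libraries, and as a description, the genes whose log2 values were most like those of UCP1 were AQP3 (r = 0.936), PNPLA2 (r = 0.933) and RXRG (r = 0.929), among 10618 named genes searched. ELOVL3 was most like ETFDH (r = 0.942), RXRG (r = 0.925) and SLC2A4 (r = 0.923). CIDEA was most like TALDO1 (r = 0.876), PRR13 (r = 0.868) and ISOC1 (r = 0.865), and COX7A1 most like MAP1LC3A (r = 0.914), TMEM223 and FBXL15 (both r = 0.911). PPARGC1A was most like TXLNG (r = 0.879), TCF7L1 (r = 0.876) and AMMECR1 (r = 0.868), PPARGC1B most like MITF (r = 0.789), EBF2 most like ALDH6A1 (r = 0.797), and PRDM16 most like MED12L (r = 0.764). These points share the stage of the libraries and their slope on genomic span.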

How the data were processed

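RNA of perirenal preadipocytes and of adipocytes differentiated from them was sequenced on a NextSeq500, and 32 libraries in 8 groups were used. The authors discarded reads of low quality, assigned reads to Ensembl transcripts of Oar_rambouillet_v1.0 with Salmon and deposited a signal per transcript and library, the reads normalized with DESeq2 over all libraries; these are no longer whole reads. Columns of group means, fold changes and p-values that the authors deposited hold their own summaries and comparisons and were not used.

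Transcripts were summed per gene. Genes with at least 10 normalized reads in at least 4 libraries were tested with limma 3.58.1 (eBayes with trend, R 4.3.3) on log2(sum + 1), in 1 fit of 8 group means, and called at an adjusted p (Benjamini-Hochberg over 12737 genes) below 0.05 and a fold above 1.5. All adjusted p-values of genes are from this limma fit. Relations across libraries were tested with 100000 permutations, two-sided. The fit was tested on simulated data. Alternatives were a pseudocount of 0.1, no filter, quantile normalization, single transcripts, the compared libraries alone, a replicate block, the slope as covariate, library weights and each library left out. Leaving out the steep libraries was an alternative chosen once the values were known.

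The members and lists were chosen with earlier results of these data known. All members are named; of each list, the largest called rise and fall and ADRB3, PPARG, PPARA, UCP2, UCP3, ADIPOQ and FABP4. CKB, CKMT2, GDF15, ADCY6 and the counts of markers at 0 were named after their values were seen. Libraries of the same number before and after differentiation deviated together with r above 0.1 in 4 of 4 pairs of MC, FC and MFGR but not of FFGR (r from -0.398 to 0.671 over 16 pairs); the labels do not say that a number is an animal. The value of 1 read was read from the lowest values of a library, and floors cover counting error only.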

Additional observations from a re-analysis of the deposited data

Results flagged for a closer look

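A library stood apart from the other 3 of its group (Dixon's test) in 7 of the 62 cases of a brown fat gene in a group of 4 with any spread. Chance gives such a flag in about 5% of groups. PPARGC1A was 3.52 normalized reads in FFGRD replicate 3 and 83.1 to 91.1 in the others, and 3.81 in FC replicate 2 against 22.8 to 27.6. COX7A1 was 28.4 in FFGRD replicate 3 against 3.97 to 4.5. Both libraries are among the 9 steep libraries, and the part of the slope in these values was not tested. The other 4 are about 1 read in a group otherwise at 0: UCP1 at 0.943 in FFGR replicate 3, and ELOVL3 at 1.01 in MC replicate 3, 0.99 in FC replicate 3 and 0.77 in FFGR replicate 4.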

How the results depend on the processing

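The 4 calls of the mean comparison kept their side of the threshold under every alternative that gave a test of the gene sum, and with library weights PRDM16 passed as lower (-1.15, adjusted p = 0.0303). Within a background the calls did not. In control males the brown fat genes called were 1 without a filter and 0 with only the compared libraries in the fit (where UCP1 and ELOVL3 fell below the filter), without the steep libraries, or over single transcripts; leaving out a library gave 0 to 2. In growth-restricted females they were 2 with a pseudocount of 0.1, the replicate block or library weights, 4 with the slope covariate, and 0 without a filter, with the compared libraries or over single transcripts; leaving out a library gave 0 to 2. With library weights 3 were called in control males and 2 in control females (UCP1, adjusted p = 0.0124, and ELOVL3, adjusted p = 0.0439). In growth-restricted males 1 was called with weights. It was none of UCP1, ELOVL3, PPARGC1A or EBF2, whose adjusted p there was 0.589 to 0.992. The gene that the replicate block added in growth-restricted females was EBF2 (adjusted p = 0.0193), and the block changed no other count of members.

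Over the whole table the genes called in control males were 1824 with the replicate block, 2173 with the slope covariate and 2418 with weights, and 662 to 1379 without a library. In control females they were 50 with the compared libraries, 712 with the block, 1466 with the slope, 1999 with weights, 730 without the steep libraries, 198 for single transcripts, and 99 to 429 without a library. In growth-restricted males they were 393 with the compared libraries, 1147 with the block, 2038 with the slope, 1932 with weights, 1103 without the steep libraries, and 392 to 714 without a library. In growth-restricted females they were 310 with the compared libraries, 2185 with the block, 2581 with the slope, and 844 to 1619 without a library. Growth restriction gave 2 genes at each stage with weights and 0 to 1 in preadipocytes without a library, and sex gave 1 transcript in preadipocytes.

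Directions turned for genes that were not called. The mean log2 difference of CIDEA became -0.31 with weights, -0.39 without the steep libraries, and -0.02, -0.03, -0.17, -0.01, -0.02 and -0.22 without MCD replicate 2, MCD replicate 4, MFGRD replicate 1, FC replicate 1, FFGRD replicate 1 and FFGRD replicate 3, over a range of -0.22 to 0.28 without 1 library. That of PPARGC1B became -0.01 without the steep libraries. ELOVL3 in growth-restricted males became -0.21 with weights and -0.20 without MFGRD replicate 1 (range to 2.07), PPARGC1A in control females -0.02 without FC replicate 2 (range to 1.13), and EBF2 in growth-restricted males -0.10 without MFGR replicate 3 (range to 0.82). The cause was not tested. Depth limits ZIC1, listed at 0 throughout, and the UCP1 and ELOVL3 of preadipocytes, which lie at or under a few reads.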
